A study of Mus musculus with 8 samples.

Results

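The subject is a set of 10 genes of cell division in cultures of mouse CD8 T cells: 8 genes of mitosis and DNA replication (Top2a, Ccnb2, Cdc20, Ttk, Kif20a, Birc5, Mcm5 and 2810417H13Rik, now called Pclaf), the cell cycle inhibitor gene Cdkn1a, which encodes p21, and the growth regulator gene Myc. They were taken by name from the 754 genes of the deposited table, and all 10 passed the filter on low values. CD8 T cells were enriched by negative selection from spleens of C57BL/6 mice, whose ages are not given in the labels. They were activated for 48 hours with anti-CD3/CD28 antibodies at 2 µg/ml in 200 µl of medium that B16F10 cells, a mouse melanoma line, had conditioned for 48 hours. In 4 samples the melanoma cells were wild type for SSBP4 (wild-type medium), and in the other 4 they carried a knockout of SSBP4 (knockout medium). Antibodies and LDS, a supplement that the labels abbreviate, were present in both groups, and the T cells themselves were not altered. RNA was counted on the nCounter Myeloid Innate Immunity panel, in which barcoded probes are counted without amplification. The labels name neither the melanoma clones nor the batches of medium, and do not say whether the 4 samples of a group came from separate mice or cultures, so p-values cover only how far these samples differ, and that may be technical.

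Resting T cells do not divide, and activated T cells enter rapid rounds of replication and mitosis. MYC is induced early after activation and drives growth in cell mass and metabolism. Cyclins with their kinases then carry the cell through replication and into mitosis, and p21, a target of the tumour suppressor p53, inhibits these kinases. Many genes of mitosis share a promoter layout of CCAAT boxes with a cell cycle genes homology region (CHR), and many replication genes carry E2F sites.

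Of the 10 genes, 8 had a promoter window in RefSeq (GRCm38.p6), which spans 250 bases before the annotated start and 50 after it. The windows were searched on both strands for CCAAT, for the CHR as TTTGAA or TTCGAA, for E2F sites as TTTCCCGC, TTTGGCGC, TTTCGCGC or TTTGCCGC, and for the E box CACGTG, the core of MYC binding sites. Bases -160 to 15, counted from the start with no base 0, are shown for 4 mitosis genes because they hold the CCAAT and CHR letters together. All are printed 5′ to 3′ on the gene's own strand with CCAAT and CHR matches, on either strand, in capitals. The Ccnb2 stretch is at chr9:70421540-70421714 (minus strand), that of Cdc20 at chr4:118437329-118437503 (minus), that of Top2a at chr11:99024175-99024349 (minus) and that of Ttk at chr9:83834529-83834703 (plus).
Ccnb2: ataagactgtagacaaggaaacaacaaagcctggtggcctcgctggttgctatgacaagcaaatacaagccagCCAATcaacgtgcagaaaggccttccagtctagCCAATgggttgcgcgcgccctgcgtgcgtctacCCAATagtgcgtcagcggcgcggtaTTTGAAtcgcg
Cdc20: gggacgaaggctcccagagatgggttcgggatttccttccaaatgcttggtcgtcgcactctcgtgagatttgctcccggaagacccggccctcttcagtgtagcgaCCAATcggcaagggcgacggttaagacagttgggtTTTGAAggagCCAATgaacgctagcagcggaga
Top2a: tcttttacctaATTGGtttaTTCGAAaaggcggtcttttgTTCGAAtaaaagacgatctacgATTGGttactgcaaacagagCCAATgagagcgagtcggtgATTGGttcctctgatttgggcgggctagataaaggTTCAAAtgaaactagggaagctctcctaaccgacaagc
Ttk: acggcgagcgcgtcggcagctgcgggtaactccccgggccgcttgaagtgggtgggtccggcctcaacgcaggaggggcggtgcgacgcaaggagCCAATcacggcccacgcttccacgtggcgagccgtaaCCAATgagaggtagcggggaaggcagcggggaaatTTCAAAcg

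In Ccnb2 the CCAAT letters began at positions -87, -54 and -21 and a CHR at position 5. Another CHR match, at -167, lay before the stretch shown. Cdc20 had CCAAT at -53 and -8 with a CHR at -18, and Ttk had CCAAT at -65 and -28 with a CHR at 8. The whole Top2a window held CCAAT letters at 6 places and CHR letters at 4. These 4 windows therefore held 2 or more CCAAT boxes together with a CHR, which 2.31% of all 32851 RefSeq windows do. CCAAT alone is common, in 37.4% of windows, and the CHR letters are in 19.2%. An E box was found in Ttk only, at -45, against 7.15% of all windows. The Birc5 window held none of these letters, and a match or its absence in such a window is a description of letters, not of a bound site.

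The same stretch of the replication gene Mcm5 (chr8:75109349-75109523, plus) and of 2810417H13Rik (chr9:65890163-65890337, plus) is shown for its E2F letters, in capitals with CCAAT. For Cdkn1a, bases -71 to -12 before the upstream of its 2 RefSeq starts (chr17:29090908-29090967, plus) are shown, with a pair of adjoining p53 motifs of 10 letters each in capitals.
Mcm5: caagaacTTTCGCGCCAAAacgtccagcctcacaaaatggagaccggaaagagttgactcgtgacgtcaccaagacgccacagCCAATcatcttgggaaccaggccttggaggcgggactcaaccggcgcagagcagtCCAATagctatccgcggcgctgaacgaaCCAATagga
2810417H13Rik: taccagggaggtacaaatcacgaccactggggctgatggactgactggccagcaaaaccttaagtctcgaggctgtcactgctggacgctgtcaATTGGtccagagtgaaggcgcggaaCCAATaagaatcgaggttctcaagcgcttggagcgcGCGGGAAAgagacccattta
Cdkn1a: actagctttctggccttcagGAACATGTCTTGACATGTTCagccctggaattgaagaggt

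Mcm5 held 2 overlapping E2F matches, which begin at -153 and -149, and 2810417H13Rik held 1 at -5. E2F letters of this kind are in 2.26% of all windows. Neither window had a CHR, but Mcm5 held CCAAT letters at 3 places and 2810417H13Rik at 2. The p53 search, added after the sequence had been seen, allowed at most 1 letter off the consensus over both motifs, and 0.0883% of all windows, 29 of 32851, hold such a pair. The window of the other Cdkn1a start held none.

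**Figure D1:**
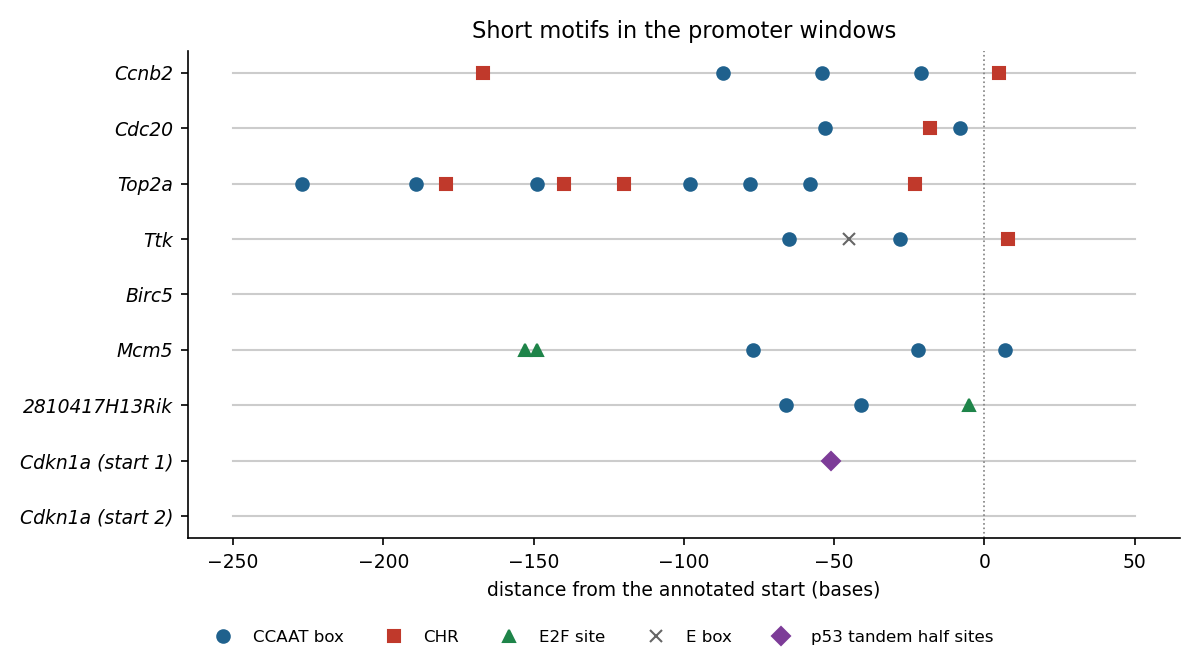
Positions of the motifs in each promoter window, with the distance of the motif's first base from the annotated start in bases on the x axis and 1 line per window. The mitosis genes Ccnb2, Cdc20, Top2a and Ttk carry CCAAT boxes and a CHR, and Mcm5 and 2810417H13Rik carry CCAAT boxes and E2F letters. Cdkn1a carries the p53 pair before its upstream start only.

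The comparison of the media asked how these transcripts differed between cultures in knockout medium and cultures in wild-type medium. Levels below are the authors' normalised counts, with mean ± SD over 4 samples per medium. Recovered whole counts totalled 188174 to 346676 per sample. A level under 22.08, the mean of the negative control probes plus 2 SD, was treated as background. Probes differ in how well they bind, so levels are compared between samples of a gene and not between genes.

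The mitosis genes were 3.73-fold to 7.21-fold lower in knockout medium. Ccnb2, which encodes cyclin B2, the partner of CDK1 at entry into mitosis, was 390, 333, 324 and 286 in samples 1 to 4 of wild-type medium against 108, 85.7, 80.6 and 80.6 in those of knockout medium. Every knockout medium sample lay below every wild-type medium sample, and the log2 change was -1.90 (SE 0.14, limma adjusted p = 3.71e-06). Cdc20, the activator of the anaphase-promoting complex, was 434, 379, 302 and 307 against 58.5, 56.7, 50.9 and 41.7. Its means of 356 ± 63.0 and 52.0 ± 7.56 gave a log2 change of -2.75 (SE 0.16, limma adjusted p = 8.62e-07), again with no overlap.

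Ttk, the spindle checkpoint kinase also called MPS1, was 177, 179, 166 and 172 in wild-type medium against 25.2, 19.7, 21.2 and 27.5 in knockout medium. It had the largest fall of the 10 genes, by 2.85 on the log2 scale (SE 0.15, limma adjusted p = 3.18e-07). Samples 2 and 3 of knockout medium lay below the background threshold, and the recovered counts in that medium were only 17 to 29, so the size of the fall is loosely set. Kif20a, a kinesin motor of the late mitotic spindle and of cell separation, was 358, 337, 256 and 256 against 67.8, 54.4, 43.5 and 43.6, a log2 change of -2.51 (SE 0.19, limma adjusted p = 4.39e-06). In both media its samples 1 and 2 were higher than samples 3 and 4. Birc5, which encodes survivin, a member of the chromosomal passenger complex that also inhibits cell death, was 369, 334, 308 and 287 against 62.4, 88.0, 74.3 and 68.2, a log2 change of -2.14 (SE 0.14, limma adjusted p = 1.47e-06). Neither gene's groups overlapped.

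Top2a, the topoisomerase that untangles sister chromatids, was 3173, 3314, 2703 and 2766 in wild-type medium against 509, 581, 669 and 564 in knockout medium. The groups were far apart, and the log2 change was -2.36 (SE 0.11, limma adjusted p = 1.45e-07). Mcm5, a subunit of the replicative helicase, was 473, 493, 500 and 433 against 163, 159, 172 and 145. It had the smallest fall of the 10 genes, by 1.57 on the log2 scale (SE 0.09, limma adjusted p = 7.07e-07), again without overlap. 2810417H13Rik, which encodes a factor that binds the replication clamp PCNA, was 283, 267, 251 and 257 against 43.8, 61.4, 98.7 and 103. The groups did not overlap, but knockout medium samples 3 and 4 were both well above samples 1 and 2. Its log2 change was -1.85 with the largest error of the set (SE 0.26, limma adjusted p = 0.000224).

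Cdkn1a moved the other way. Its level was 134, 137, 112 and 102 in wild-type medium against 1491, 1683, 1563 and 1504 in knockout medium, or 121 ± 16.9 against 1560 ± 87.9. The lowest knockout medium sample was far above the highest wild-type one, and the log2 change was 3.69 (SE 0.11, limma adjusted p = 9.91e-09), 12.9-fold. Among the 454 tested genes, 16 had a larger rise.

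Myc was 2661, 2443, 2829 and 2967 in wild-type medium against 829, 822, 771 and 736 in knockout medium. All 4 knockout medium samples were below all 4 wild-type ones, and the log2 change was -1.78 (SE 0.08, limma adjusted p = 1.65e-07), 3.44-fold lower. In bulk RNA, fewer cells of a type and less RNA per cell cannot be told apart, which holds for all 10 genes.

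**Figure D2:**
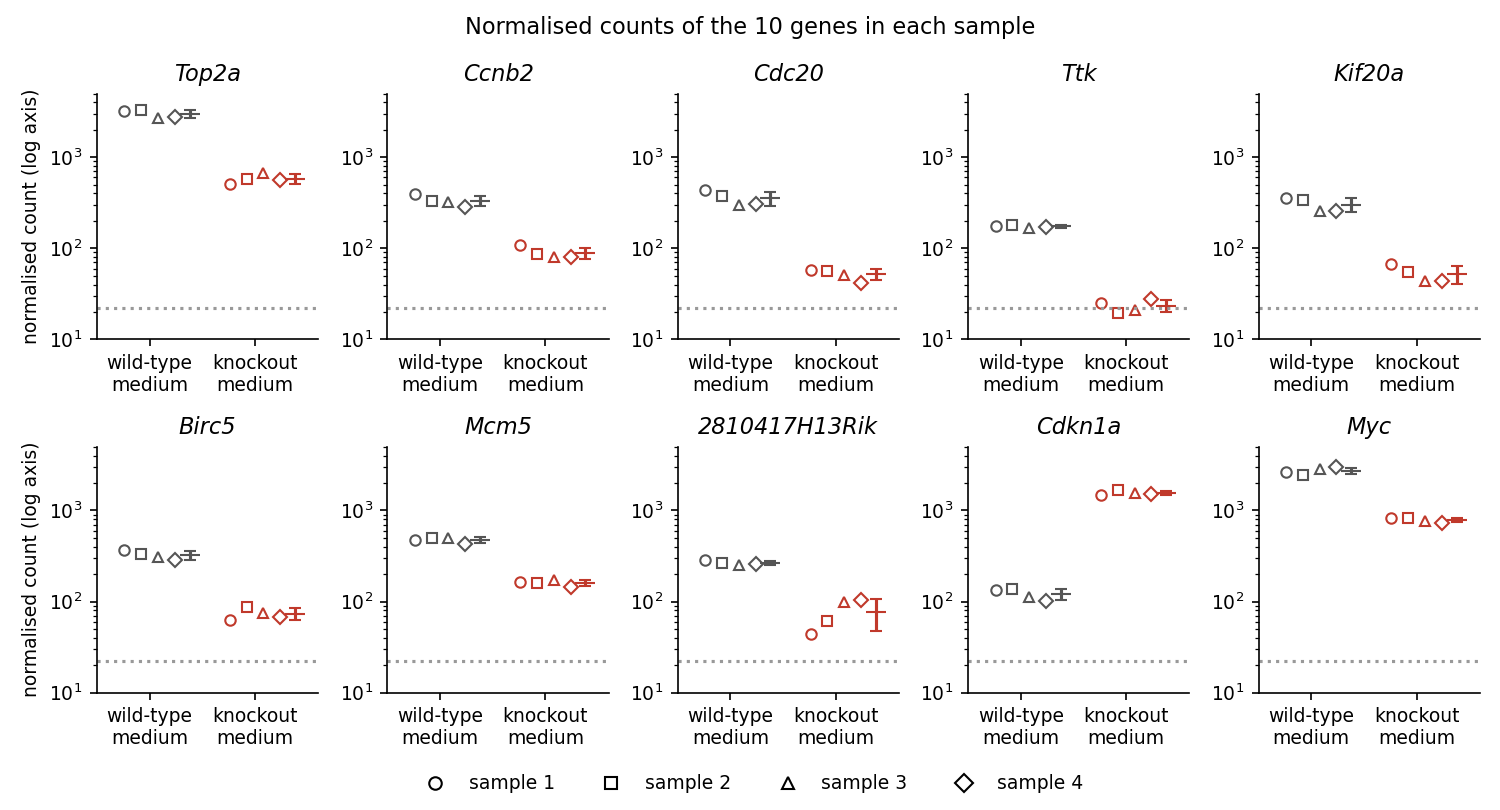
Normalised counts on a log axis for each of the 10 genes, with 1 symbol per sample and the mean ± SD beside the 4 samples of each medium; the dotted line is the background threshold of 22.08. All genes but Cdkn1a lie lower in knockout medium, Cdkn1a lies higher, and Ttk reaches the background in knockout medium.

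In all, 9 of the 10 genes were called lower and 1 higher (limma, adjusted p under 0.05), where 24.7% of the 454 tested genes were called lower and 46.9% higher. The 9 were all lower by 2-fold or more, as were 15.4% of tested genes, and Cdkn1a belonged to the 30.6% higher by 2-fold or more. There was no overlap between the media for any of the 10, against 23.8% of tested genes lower and 44.3% higher without overlap. The 8 mitosis and replication genes had a median log2 change of -2.25, beside 0.41 over all tested genes. None of the 9 was at the far end of the range: 20 tested genes fell more than Ttk and 48 more than Mcm5.

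**Figure D3:**
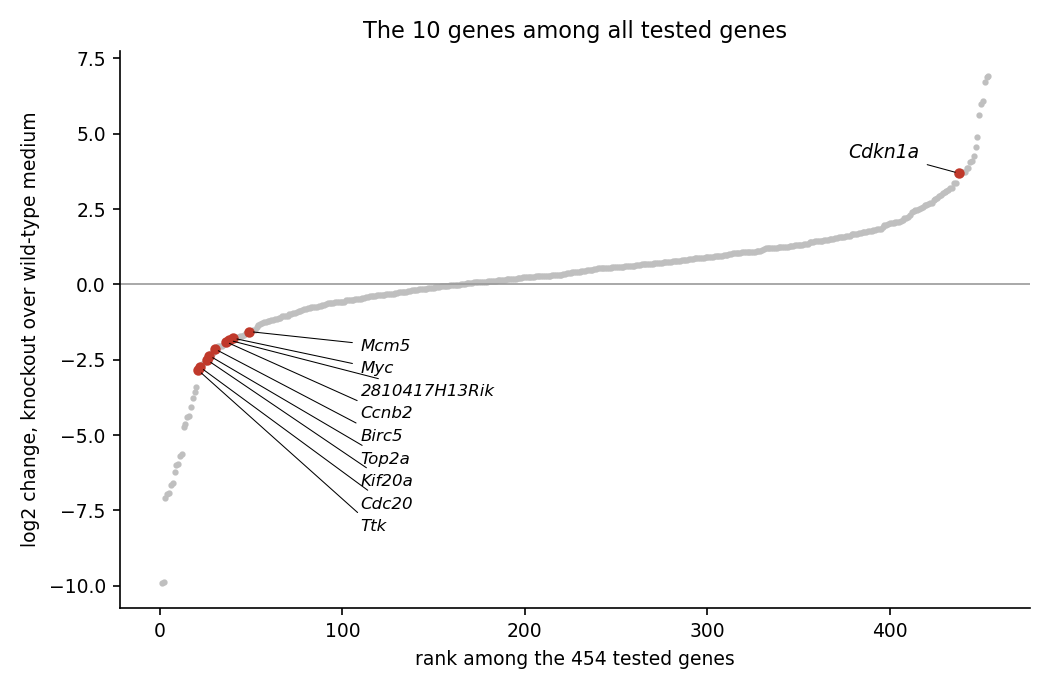
Log2 change of all 454 tested genes in order of rank, with the 10 genes marked. The 9 lower genes sit between -2.85 and -1.57, above a tail of genes with larger falls, and Cdkn1a sits at 3.69 near the upper end.

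How far the falls differed was read from ratios of 2 genes within a sample, into which no scaling of samples enters. The log2 ratio of Cdc20 to Mcm5 was -0.12, -0.38, -0.73 and -0.49 in wild-type medium against -1.48, -1.48, -1.75 and -1.80 in knockout medium. Cdc20 thus stood lower against Mcm5 in every knockout medium sample, by 1.20 on average. The ratio of Ttk to Mcm5 was lower by 1.33 and that of Top2a to Mcm5 by 0.79, both without overlap. The size of the first is loosely set, since Ttk was below background in 2 knockout medium samples, with counts of 17 to 29. Between Cdc20 and Kif20a the ratio differed by -0.24, and between Ccnb2 and 2810417H13Rik by -0.04, with overlapping samples. The ratio of Mcm5 to Myc, which ran from -2.78 to -2.31 in wild-type medium and from -2.37 to -2.17 in knockout medium, overlapped too. That of Cdkn1a to Myc went from -4.50 ± 0.32 to 0.98 ± 0.09, a difference of 5.48 on the log2 scale. These pairs were picked after their values were seen and are given with no test.

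The spread within a medium differed between genes. The coefficient of variation of Myc was 8.29% in wild-type and 5.55% in knockout medium, and that of Mcm5 was 6.42% and 7.03%. For Cdc20 in knockout medium it was 14.5%, where counting error alone would give 14.7%. In wild-type medium Cdc20 varied by 17.7% against 5.02% from counting, Kif20a by 17.7% against 5.45% and Top2a by 10.1% against 1.74%. The highest value of the set was that of 2810417H13Rik in knockout medium, at 37.6%, where counting error would give 11.8%. That gene changed by different amounts in the samples numbered 1 and 2 and those numbered 3 and 4, with a log2 change of -2.38 in the first and -1.32 in the second. Myc changed by -1.63 and -1.94 and Top2a by -2.57 and -2.15, while Ccnb2, at -1.90 and -1.90, and Mcm5, at -1.58 and -1.55, hardly differed between them. The difference between these subsets was not tested, since what the sample numbers stand for is not labelled. All 10 genes kept their direction and call in each subset, with the highest limma adjusted p at 6.55e-05.

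**Figure D4:**
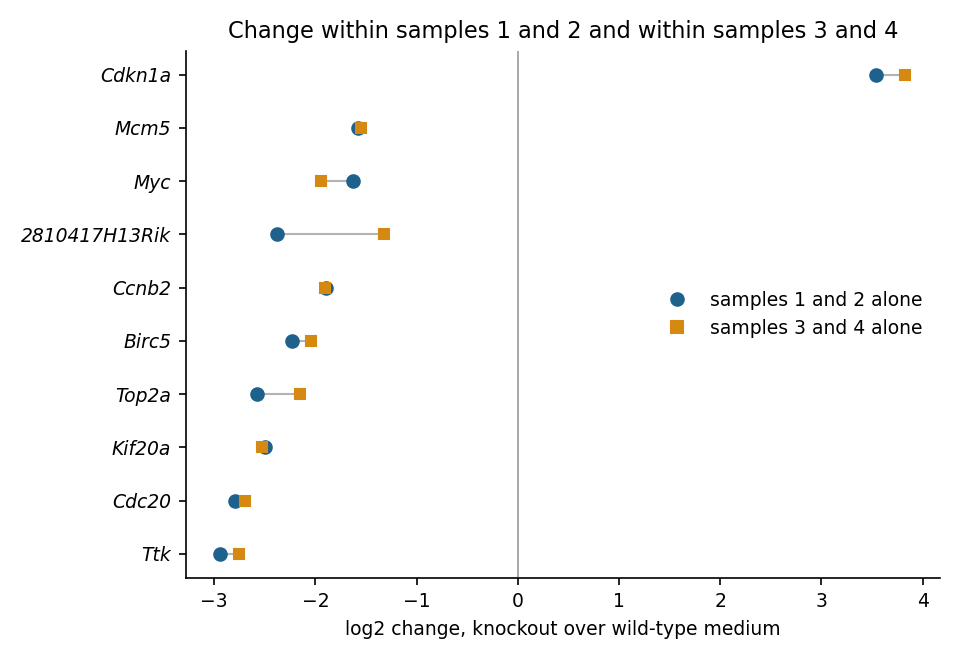
Log2 change of each gene, knockout over wild-type medium, computed from samples 1 and 2 alone (circles) and from samples 3 and 4 alone (squares). The 2 values lie close for most genes and are farthest apart for 2810417H13Rik, at -2.38 and -1.32.

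The scale of the samples matters to all changes in this data set. The deposited values were scaled to 20 reference genes, and the median of all tested genes was then 0.41, and 213 genes were called higher and 112 lower. Median scaling called 152 higher and 148 lower, quantiles 166 and 136, TMM in edgeR 149 and 160, DESeq2 156 and 152, and a scaling to 6 T cell genes 61 and 258. The 10 genes kept their direction under each of these scalings. Scaled to T cell genes, the median of the 8 mitosis and replication genes was -3.51 against -0.85 over all genes, Myc was at -3.05 and Cdkn1a at 2.42. Of the reference genes, Eef1g, a translation elongation factor gene, was itself 3.71-fold lower in knockout medium. Against Eef1g alone, Mcm5 stood at 0.32, Myc at 0.11 and 2810417H13Rik at 0.0252, on the other side of 0, and Ccnb2 at -0.0185. Against each of the other 19 reference genes singly, the 9 genes stayed lower, by at least 0.89 on the log2 scale, and Cdkn1a stayed higher.

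**Figure D5:**
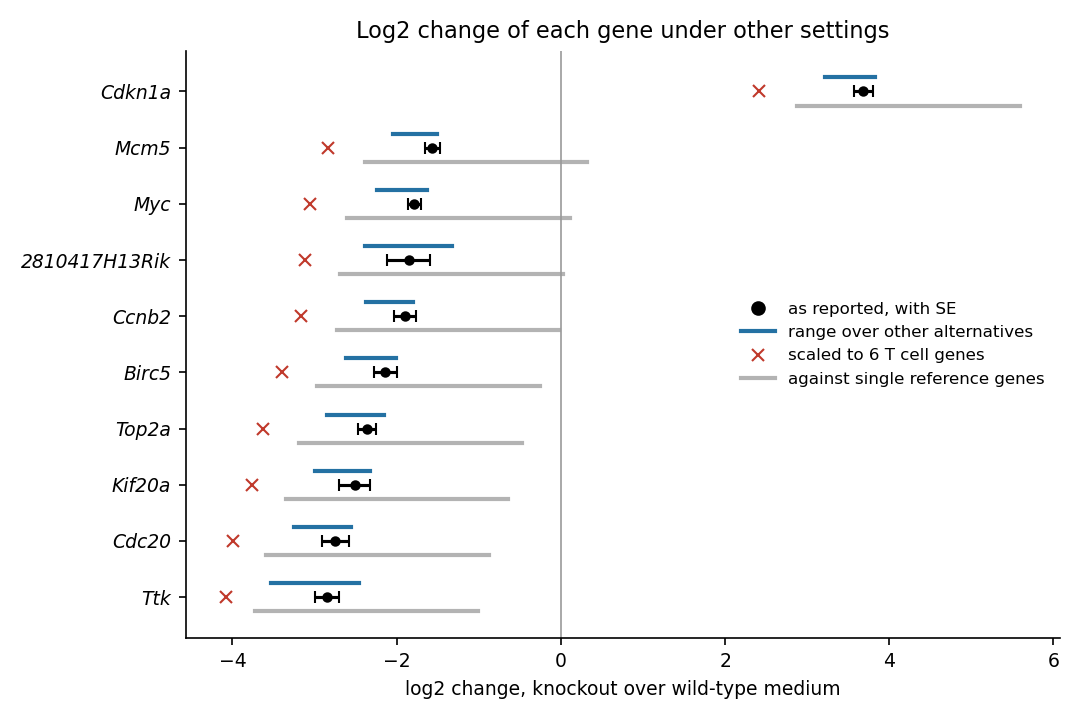
Log2 change of each gene as reported with its SE (black), its range over the other alternatives (blue), its value with samples scaled to 6 T cell genes (red crosses) and its range against each of the 20 reference genes singly (grey). The blue ranges and red crosses keep the sign of the black points, while 3 grey ranges, those of Mcm5, Myc and 2810417H13Rik, cross 0.

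Few other genes of the cell cycle were measured. Of 37 listed cyclins, kinases, inhibitors and checkpoint genes, 0 were in the table, so the partners of cyclin B2 and p21 were not analysed here. Among other mitosis and replication genes, 2 are described here. Ndc80, a kinetochore gene, fell from 28.9 ± 4.64 to 18.3 ± 2.43, below background in all 4 knockout medium samples. Its call did not hold when sample 1 of wild-type medium was left out (limma adjusted p = 0.0526), in samples 3 and 4 alone (0.375) or with samples 1 and 2, and 3 and 4, averaged first (0.112). Tubb5, a tubulin gene and one of the reference genes, rose from 611 ± 80.2 to 990 ± 292. Its call did not hold when sample 4 of either medium was left out (limma adjusted p of 0.0514 for wild-type and 0.0505 for knockout medium), nor under median or positive control scaling, TMM or DESeq2, nor with the samples averaged (0.119). Scaled to T cell genes it was at -0.61 and called lower (limma adjusted p = 0.0259).

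Of 24 genes of p53 and its targets besides Cdkn1a, 4 were measured and 3 tested, and all 3 rose, with a median of 1.10 beside 0.41 over all genes, of which 46.9% were called higher. The anti-proliferative gene Btg2 was 46.7, 56.1, 60.1 and 42.5 against 99.6, 88.0, 129 and 120, a log2 change of 1.07. The sestrin gene Sesn1 rose by 1.10 and Gadd45b, a stress gene that is also induced by NF-kappaB, by 1.69. All 3 rises were far smaller than that of Cdkn1a, at 3.69. Scaled to T cell genes, Btg2 and Sesn1 turned to -0.18 and -0.16, and Gadd45b was 0.42 with no call. The death receptor gene Fas was 18.3 ± 8.15 against 14.9 ± 2.88, with means below background, and untested. Trp53 and Mdm2 were not analysed here.

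Of 32 partners and usual targets of MYC, only Id2 was measured. Id2, an inhibitor of basic helix-loop-helix factors, was 215, 310, 534 and 474 against 2018, 1888, 3291 and 3111, a log2 change of 2.79 (limma adjusted p = 5.01e-05). The groups did not overlap, and the direction was opposite to that of Myc.

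Of 35 genes of signals that act on Myc or Cdkn1a, 14 were measured and 13 tested, of which 3 fell and 7 rose, with a median of 0.54. These counts lie near the background of 24.7% of all tested genes called lower and 46.9% called higher. The falls were in Klf4, a transcription factor gene known to induce p21, from 624 ± 44.4 to 23.1 ± 6.59, in Smad2, by 0.75, and in Tgfb1, by 0.59 on the log2 scale. Klf4 and Cdkn1a thus moved in opposite directions. The Tgfb1 call did not hold in samples 3 and 4 alone (limma adjusted p = 0.0682) or with samples 1 and 2, and 3 and 4, averaged first (0.0687). The largest rise was in Ctnnb1, the beta-catenin gene, which was 860, 855, 829 and 762 against 4971, 4446, 5211 and 5090. The kinase gene Map2k1 and the transcription factor gene Stat3 rose by 0.65 and 0.93 on the log2 scale, but neither kept its direction when scaled to T cell genes. Map2k1 was then at -0.62 and called lower (limma adjusted p = 0.0374), and had no call under median scaling (0.11) or with TMM in edgeR (0.109), while Stat3 was at -0.34 with no call. Hras, Pik3cg and Nfatc1 had no call in the fit reported. With the replicate number as a block Pik3cg was called higher (limma adjusted p = 0.0109), and Nfatc1 was called lower under median scaling (0.00555), quantile normalization (0.00172) and scaling to T cell genes (0.000215), and with TMM and DESeq2. Hras was also called lower with T cell genes as the scale (limma adjusted p = 0.00235). Il2, the T cell growth factor gene, was 1.06 to 6.95 in all samples and untested.

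The tested genes outside the set whose pattern over the 8 samples was most like the mean of the 8 mitosis and replication genes were Cav1, Anxa1 and Emp1, at a Pearson r of 0.9989, 0.9982 and 0.9981. Cav1, the caveolin-1 gene, was 2775, 2468, 1972 and 2016 against 118, 146, 157 and 127. Most like Myc were Il1rl1, Ptgs2 and Fgf7 (r of 0.9984, 0.9979 and 0.996), which all lay below background in knockout medium. Most like Cdkn1a were Loxl2, Ctnnb1 and Cdh2 (0.9977, 0.9969 and 0.9968), and Cdh2, the N-cadherin gene, was 80.5 to 85.5 in wild-type and 603 to 701 in knockout medium. With 8 samples in 2 groups such values are common: 72, 73 and 130 of 444 genes had an r over 0.9 with the 3 patterns, and the samples share their group and their scaling.

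Markers of several cell types moved with these genes. Of 18 T cell markers 6 were measured and all 6 rose, where 46.9% of all tested genes were called higher, and their summed level was 715 to 1052 in wild-type and 1543 to 2308 in knockout medium. Fyn, a kinase of T cell receptor signalling, was 381 to 456 against 702 to 836. Scaling samples to these 6 genes themselves cancels their average change by construction, so it cannot test their rise. Fyn was then at -0.39 and Cd247 at -0.0477, and Ptprc had no call (limma adjusted p = 0.59). CD8 chains and the CD3 chains epsilon, gamma and delta were not analysed here, so these 6 could not check the labelled cell type. Of 14 stromal markers 7 were measured and 6 tested. Of these 5 fell and 1 rose, where 24.7% of all tested genes were called lower and 46.9% higher. The sum of the 7 was 5912 to 6870 against 53.1 to 89.2, with Cd34, Pdgfra, Prrx1, Col3a1 and Vcam1 at background in all knockout medium samples. Cd34 alone was 4503 to 5069 in wild-type medium, so genes listed as stromal were abundant in cultures labelled as CD8 T cells. Which cells these transcripts came from was not tested.

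Of 10 melanocyte or melanoma markers 2 were measured: Kit was at background in all 8 samples, and Ptgds, which other cells also express, was 19.0 to 23.4 against 2226 to 2313. Of 8 measured B cell and dendritic cell markers 4 were tested and all 4 rose, where 46.9% of all tested genes were called higher and 24.7% lower. The sum of all 8 was 79.4 to 129 against 499.5 to 5886, and Itgax, Flt3 and Xcr1 were at background throughout. Samples 3 and 4 of knockout medium stood apart: Cd74, the MHC class II invariant chain gene, was 30.1, 36.2, 58.2 and 32.9 against 364, 401, 3815 and 3208. H2-Aa and H2-Ab1, MHC class II chain genes, had no call when samples 1 and 2, and 3 and 4, were averaged first (limma adjusted p = 0.0953 and 0.0693). The sum of 12 macrophage and monocyte markers was 318 to 606 against 418.5 to 1130. Of them 6, among them Adgre1 and Csf1r, were at background in all samples. Just 5 passed the filter, and Fcgr4 rose and Cd68 fell, beside 46.9% called higher and 24.7% called lower among all tested genes. The fall of Cd68 was small, at -0.47 (limma adjusted p = 0.0411). Its call was lost without the filter (0.0532), in samples 1 and 2 alone (0.242) and after averaging by pairs (0.149). Leaving out wild-type sample 2, 3 or 4, or knockout sample 1 or 3, also removed it (0.063 to 0.103). Like Fcgr4, Ccr2 was called higher with the replicate number as a block (limma adjusted p = 0.000115). All 12 measured neutrophil and mast cell markers were at background. The sum of 2 NK cell markers was 116 to 533 against 452 to 1032. Both were tested and Nkg7 rose, beside 46.9% called higher among all tested genes. The Nkg7 call was lost after averaging by pairs (limma adjusted p = 0.0821). With T cell genes as the scale Nkg7 stood at 0.33, again with no call (0.27). Klrk1 was called higher only with the replicate block (limma adjusted p = 0.00535) or in either pair of samples alone. The sum of 3 endothelial or epithelial markers was 23.5 to 34.0 against 35.9 to 45.5. The part of these cell types in the results on the 10 genes was not tested.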

How the data were processed

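RNA of 8 samples, 4 per medium, was measured on the nCounter panel. The deposited signal values are normalised counts; per the labels' protocols only the assay is named, and the authors' software is not given in the sources used here. Gene values above 1 were whole multiples, within 0.1 of a step, of 1 factor per sample for 99.87% to 100% of values. Each factor equalled a positive control factor times one from 20 reference genes. Values below 1 were listed as 1, and 14 control probes were left unscaled. Dividing by the factor recovered whole counts.

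Genes with a mean of at least 22.08 were tested, which kept 454 of 754. The threshold comes from unscaled controls. limma 3.58.1 (lmFit, eBayes with trend, under R 4.3.3) was run on log2(value + 1), with medium as the only term, two-sided, with Benjamini-Hochberg adjustment over the genes tested and 0.05 as the threshold. Fold changes are on that log2 scale and understate those of low genes. edgeR 4.0.16 and DESeq2 1.42.0 on recovered counts were alternatives. Scripts were tested on simulated data.

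The genes described and the lists were chosen with earlier results of these data known. Named are the 10 genes, up to 3 called genes per direction and list with the smallest p, the 3 genes most like each pattern, and the 3 most abundant markers per list. List genes with no call or test, Adgre1, Csf1r and other markers at background, and reference genes were named after their values were seen. A result of the lists is not reported here. Across genes, samples of the same number deviated together from their group means (r = 0.454, 0.296, 0.465 and 0.197). The reported fit did not pair samples, and the number was used as a block only in an alternative fit. The labels do not state a pairing, and sample 1 also resembled sample 2 of the other medium (0.396 and 0.267), as did samples 3 and 4 (0.424 and 0.255). Promoter sequences are from RefSeq, GRCm38.p6, and 2810417H13Rik was matched as Pclaf.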

Additional observations from a re-analysis of the deposited data

How the results depend on the processing

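The 10 genes kept their direction and call in all 239 values from the 24 alternative fits, of which 1 was chosen after seeing the data (scaling to the reference genes without Eef1g and Tubb5); Ttk is not among genes with a mean of at least 100. Their highest adjusted p was 0.0212, for 2810417H13Rik after averaging samples 1 and 2, and 3 and 4, of each medium. With the replicate block, 342 genes were called in place of 325 and no call of the 10 changed. Leaving out each sample in turn gave 306 to 334 called genes. Scaled to T cell genes, 258 genes were lower and 61 higher. With a mean of at least 100, 214 were called, 134 of them higher, since fewer genes were tested. Against Eef1g alone, also chosen after seeing the data, the log2 changes were 0.32 for Mcm5, 0.0252 for 2810417H13Rik and 0.11 for Myc, and -0.47 for Top2a, -0.0185 for Ccnb2, -0.88 for Cdc20, -1.01 for Ttk, -0.64 for Kif20a, -0.26 for Birc5 and 5.59 for Cdkn1a, since Eef1g itself was lower. Among other named genes, scaling to T cell genes turned Tubb5 to -0.61, Btg2 to -0.18, Sesn1 to -0.16, Map2k1 to -0.62, Stat3 to -0.34, Pik3cg to -0.47, Hras to -1.14, Fyn to -0.39, Cd247 to -0.0477 and Klrk1 to -0.43. Hras, with no call in the fit reported, was also -0.27 with median scaling, -0.0565 with quantile normalization, -0.0221 with positive controls, -0.33 with TMM and -0.26 with DESeq2. Of the remaining values of other named genes, 28 lost a call and 17 gained one. Low counts limit Ttk most.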

Other observations

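The 20 genes to which the deposited values were scaled did not all hold still between the media. Of them 6 were called higher, 5 lower and 9 had no call (limma, adjusted p under 0.05). Eef1g was 8869 on average in wild-type medium and 2124 to 2693 in knockout medium, a log2 change of -1.89. Ppia, the cyclophilin A gene, rose by 0.71 and Rpl19, a ribosomal protein gene, fell by 0.58 on the log2 scale.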
